A study of Zea mays with 2 samples.

Results

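In maize leaf protoplasts, 8 genes for precursors of the microRNA miR156 were listed with a peak of the protein KN1, and their 10 peaks are described here. Members were all genes whose name in the deposited peak table begins with zma-MIR156 followed by a letter. They make up 8 of the 35 named microRNA genes with a peak, and their peaks are 10 of 21437 in the table, of which 21168 lie on chromosomes. Having a listed peak is therefore how the genes were chosen, not a result.

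The peaks come from chromatin immunoprecipitation followed by sequencing (ChIP-seq), with 1 KN1 ChIP library and 1 input library. Both were made from leaf protoplasts, cells without walls, of seedlings of the inbred line B73 that had grown for 3 days in a light-dark cycle and 7 days in darkness. Protoplasts were transfected with the p1107-KN1 plasmid, from which KN1 carrying a biotin ligase recognition peptide (BLRP) was overexpressed. Both libraries are labelled with the same cells and genotype, and no ChIP from cells without tagged KN1 was analysed here. The protein was thus an overexpressed, tagged form in leaf cells, and without a second library per group no value below has a replicate error or a test between conditions.

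KN1 (KNOTTED1) is a KNOX-class homeodomain protein that regulates transcription, known for keeping cells of the shoot meristem undifferentiated. A microRNA gene is transcribed into a long primary transcript that folds into a hairpin, and the hairpin is processed to the short mature microRNA. Mature miR156 is abundant in young plants and prolongs their juvenile phase through repression of SPL genes, which encode transcription factors of the SBP-box family. In maize, overexpression of miR156 from the Corngrass1 locus causes juvenile traits to persist in the adult plant. The annotated genes used here are the hairpins alone, 90 to 167 bp long, so the start of the primary transcript lies at an unlisted distance upstream of each one.

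The 8 precursors lay on 5 chromosomes and none was clustered with another. Their coordinates are given on AGPv4, the B73 assembly to which the gene identifiers of the table belong. Chromosome 2 carried zma-MIR156e and zma-MIR156f, 153 Mb apart. On chromosome 5, zma-MIR156d and zma-MIR156l were 93.9 Mb apart, and on chromosome 7 zma-MIR156g and zma-MIR156j were 15.3 Mb apart. The remaining genes, zma-MIR156i on chromosome 4 and zma-MIR156k on chromosome 6, were the only listed members of their chromosomes. Of the 8 genes, 6 had 1 peak each, and zma-MIR156e and zma-MIR156f had 2 each.

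KN1 summits lay beside the hairpins and not inside them. Of the 10 summits, 6 were upstream of the precursor by its strand, at 497 to 2589 bp, and 4 were downstream, at 56 to 828 bp. None was inside, where a hairpin offers only a short target. Over all chromosomal rows of genes with nuclear identifiers, 44.6% of summits were upstream, 22.4% downstream and the rest inside, but those genes are mostly far longer. Among the 34 peaks of other named microRNA genes, 19 summits were upstream, 0 inside and 15 downstream. The downstream summits of miR156 genes were all within 1 kb of the hairpin, with a median of 415 bp, against a median of 2244 bp for the other microRNA genes. The upstream ones had a median of 923 bp, against 561 bp for the other microRNA genes.

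**Figure D1:**
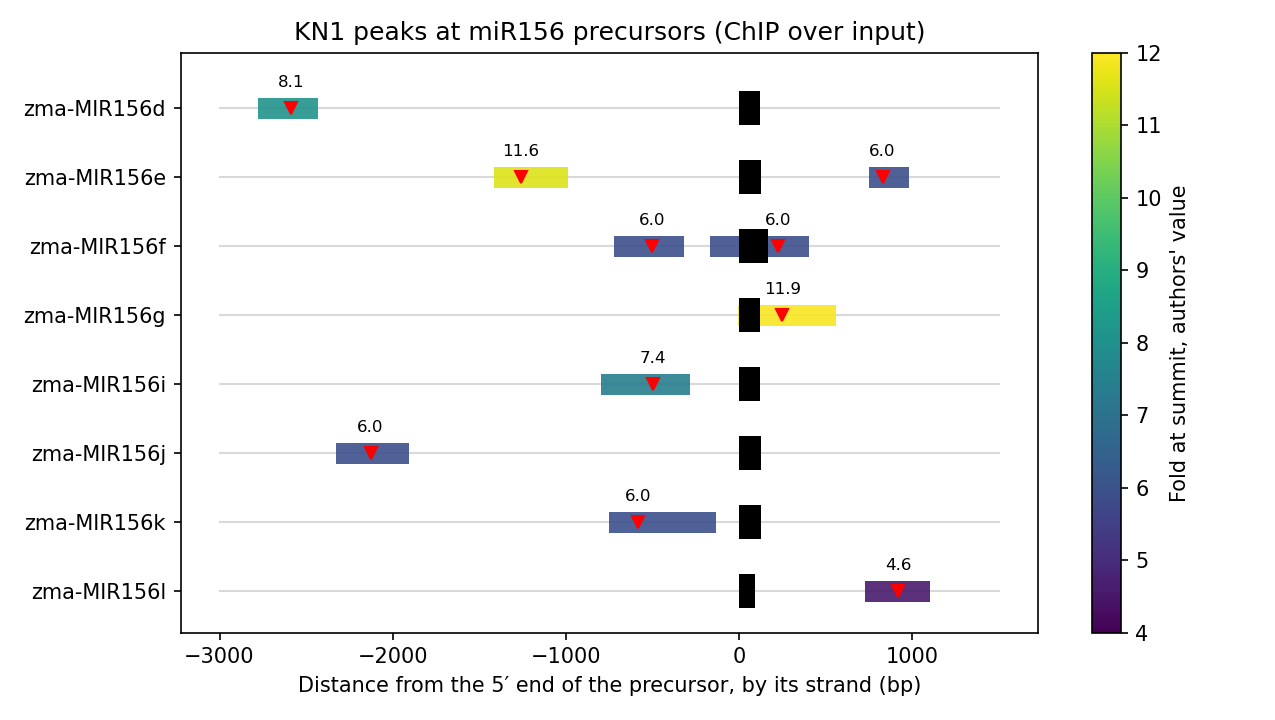
KN1 peaks at the 8 miR156 precursors, 1 row per gene, drawn to scale with 5′ to the left (x axis, distance in bp from the 5′ end of the precursor). Black boxes are precursors, coloured bars are peaks with their fold in the colour scale and above, and red triangles are summits, of which 6 lie left of the box and 4 right of it.

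A whole hairpin was covered by 2 of the 10 peaks. Among other named microRNA genes, 5 of 34 peaks overlapped the hairpin, in whole or in part. Over chromosomal rows of genes with nuclear identifiers, 11605 of 21419 peaks overlapped the gene, but those genes are mostly far longer. The peak of zma-MIR156g (plus strand, chromosome 7, 119411284 to 119411404) ran from 119411279 to 119411845, so that it began just before the hairpin and its summit lay 128 bp past the hairpin's end. It had the highest fold of the family, 11.9, with 33 KN1 ChIP reads over the summit against an input level of 1.85. Fold is given as deposited by the authors, on a linear scale and with 1 added both to the ChIP reads and to the input level at the summit. The input level is the one their peak call used. The same peak was also listed for Zm00001d020500 (119411001 to 119414845, plus strand), a longer gene that contains the hairpin, where the summit lay 531 bp inside from the start.

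At zma-MIR156f (minus strand, chromosome 2, 185613978 to 185614144) both listed peaks were of equal height. One, from 185613744 to 185614312, covered the hairpin and had its summit 56 bp downstream of it, the shortest distance among the 10. The other, from 185614465 to 185614868, had its summit 501 bp upstream, and only 152 bp separated the peaks. Each had 16 ChIP reads over the summit, against an input level of 1.85, for a fold of 5.96.

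The hairpin of zma-MIR156e (plus strand, chromosome 2, 33005026 to 33005151) was flanked by peaks of unequal height. Upstream, the peak from 33003611 to 33004038 had its summit at 1260 bp, with 32 ChIP reads against an input level of 1.85, for a fold of 11.6. Downstream, the peak from 33005775 to 33006004 had its summit at 702 bp, with 16 ChIP reads against an input level of 1.85, for a fold of 5.96. The exact Poisson 95% intervals of the 2 ChIP counts, 21.9 to 45.2 upstream and 9.15 to 26.0 downstream, overlapped. These intervals cover counting error only, and their overlap is not a test of whether the 2 counts differ, which was not tested.

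The summits at zma-MIR156i and zma-MIR156k lay at similar distances upstream. The peak of zma-MIR156i (minus strand, chromosome 4, 140280587 to 140280703) ran from 140280989 to 140281503, with its summit at 497 bp, 20 ChIP reads against an input level of 1.85, for a fold of 7.36. The peak of zma-MIR156k (minus strand, chromosome 6, 98967260 to 98967382) ran from 98967519 to 98968132, with its summit at 586 bp, 16 ChIP reads against an input level of 1.85, for a fold of 5.96. Together with the upstream summit of zma-MIR156f, these were the 3 members' summits within 1 kb upstream, all between 497 and 586 bp. The share, 3 of 10, compares with 13 of 34 for other named microRNA genes and 28.9% for chromosomal rows of genes with nuclear identifiers.

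More distant upstream summits belonged to zma-MIR156d and zma-MIR156j. For zma-MIR156d (minus strand, chromosome 5, 94725847 to 94725965) the peak from 94728399 to 94728744 had its summit at 2589 bp, with 22 ChIP reads against an input level of 1.85, for a fold of 8.06. For zma-MIR156j (minus strand, chromosome 7, 134663764 to 134663888) the peak from 134665793 to 134666214 had its summit at 2128 bp, with 16 ChIP reads against an input level of 1.85, for a fold of 5.96. The weakest peak of the family was at zma-MIR156l (minus strand, chromosome 5, 188595332 to 188595421), where the peak from 188594322 to 188594693 had its summit 828 bp downstream. It had 12 ChIP reads, with an interval of 6.20 to 21.0, against an input level of 1.85, for a fold of 4.56.

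**Figure D2:**
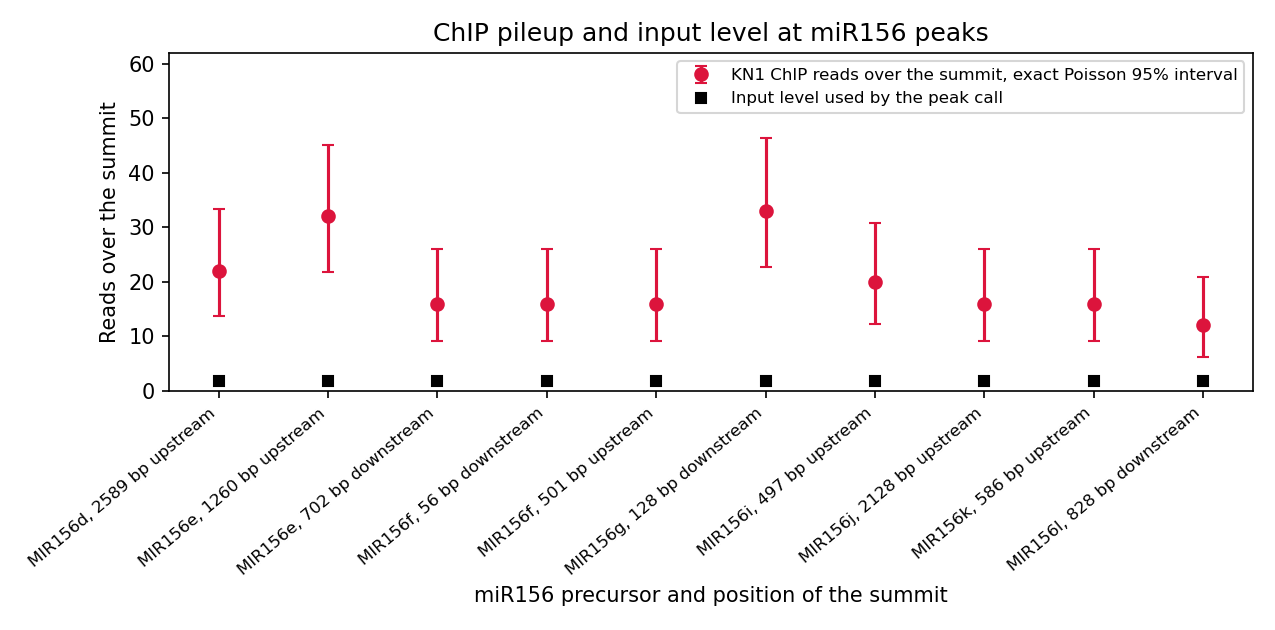
Reads over the summit (y axis) at each of the 10 miR156 peaks (x axis, gene and summit position). Red points are KN1 ChIP reads with exact Poisson 95% intervals, between 12 and 33 reads, and black squares are the input level of 1.85 at every peak.

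Height, as reads over the summit, ran from 12 to 33 across the family. The median was 16 reads, against 21.5 for other named microRNA peaks and 26 for chromosomal peaks. The same 16 reads and the same fold stood at 5 of the 10 peaks, in zma-MIR156e, zma-MIR156f (both peaks), zma-MIR156j and zma-MIR156k. At all 10 peaks the input level was 1.85, the genome-wide floor that the peak call substitutes where local input is lower. With input at this floor, fold is set by the ChIP reads alone, so peaks with equal reads have equal fold. The floor also stood at 33 of the 34 other microRNA peaks and at 92.1% of chromosomal peaks. All 5 peaks of 16 reads were called at a −log10 q of 8.31, whereas the −log10 q was 27.4 at the peak of zma-MIR156g and 26.1 at the upstream peak of zma-MIR156e.

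Equal height did not mean equal width. The 5 peaks of 16 reads were 230, 404, 422, 569 and 614 bp wide. In all, 787 chromosomal peaks (3.72%) had 16 reads over an input at the floor, and their median width was 316 bp, with quartiles of 276 and 389 bp. Of the 5, 4 were thus wider than the upper quartile, and the downstream peak of zma-MIR156e was narrower than the lower one. The widest, at zma-MIR156k, exceeded 95.8% of chromosomal peaks of this height, and the one covering the hairpin of zma-MIR156f exceeded 95%. Over all 10 peaks the median width was 425 bp, against 455 bp for chromosomal peaks.

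Compared with other KN1 peaks, those of the miR156 family were mostly of low enrichment. Their median fold was 5.96 (range 4.56 to 11.9), against 7.89 for the 34 peaks of other named microRNA genes (range 3.74 to 51.9) and 9.47 for all chromosomal peaks. These folds depend on the input floor, which rests on the effective genome size of 700 Mb in the peak names. With that background spread over the 2104 Mb of the chromosomes the miR156 median would be at most 10.5. That value holds where local input does not exceed the lowered floor, and local input below the floor used is not known. The same change can raise the fold of every other peak at the floor. As deposited, a fold of at least 5 was reached by 9 of 10 miR156 peaks, against 28 of 34 other microRNA peaks and 86.0% of chromosomal peaks. A fold of at least 10 was reached by 2 of 10, at zma-MIR156e and zma-MIR156g, against 14 of 34 other microRNA peaks and 47.3% of chromosomal peaks. At a −log10 q of at least 10 there were 4 of 10 miR156 peaks, at zma-MIR156d, zma-MIR156e, zma-MIR156g and zma-MIR156i, against 24 of 34 other microRNA peaks and 69.6% of chromosomal peaks. Even the strongest peak of the family exceeded only 59.3% of chromosomal peaks in fold, and the weakest, at zma-MIR156l, exceeded 5.11%. These are descriptions of 1 pair of libraries, and no test of the family against the rest was made.

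**Figure D3:**
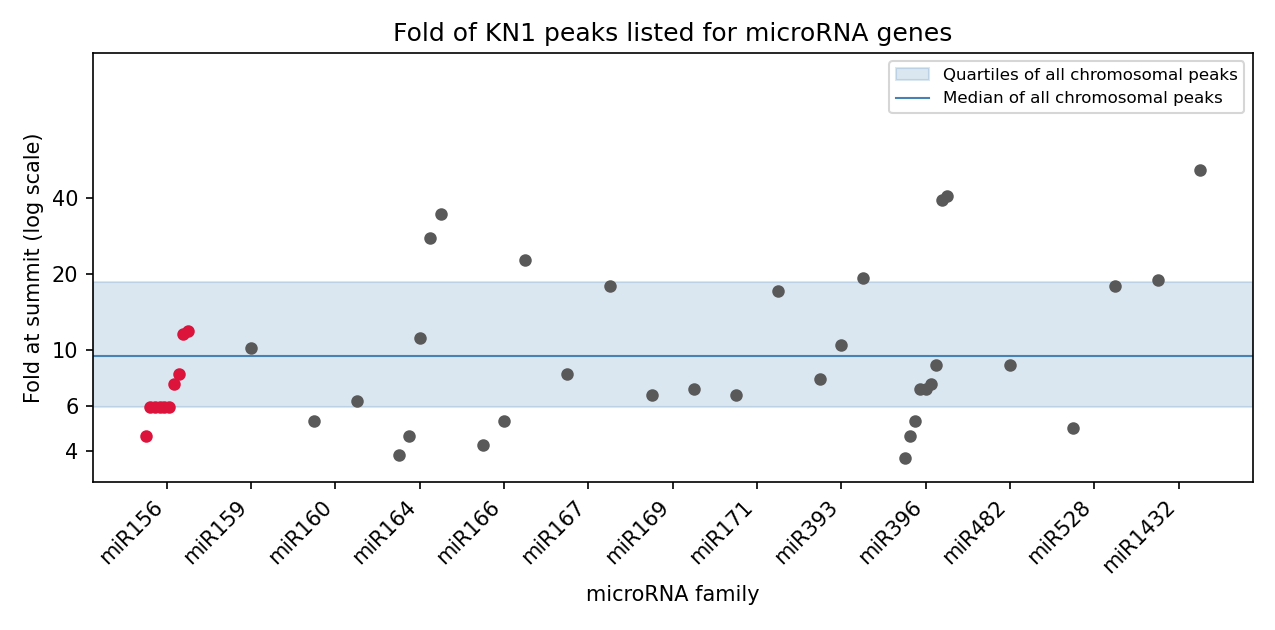
Fold at the summit (y axis, log scale) of each peak listed for a named microRNA gene, by family (x axis, miR156 in red at the left, other families in grey). The blue line and band are the median of 9.47 and the quartiles of all chromosomal peaks, and 8 of the 10 miR156 points lie below the line.

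The peaks of each miR156 gene lay away from listed peaks not assigned to it, but that of zma-MIR156g was itself also listed for Zm00001d020500. For each of the 8 genes, the nearest listed peak not assigned to that gene was over 10 kb away, as it was for 66.1% of 13982 listed genes and for 13 of 27 other named microRNA genes. The shortest such gap was 15045 bp at zma-MIR156d and the longest 299 kb at zma-MIR156g, with 204 kb at zma-MIR156i. Their median was 59.8 kb, against 8.69 kb for the other microRNA genes and 25.5 kb for all listed genes. The table holds only peaks near annotated genes. At 4 of the 10 miR156 peaks an adjacent peak number was not among those listed, against 22.7% of chromosomal peaks. These were the peaks of zma-MIR156d, zma-MIR156g, zma-MIR156i and zma-MIR156k, so the longest gaps above are among them. The positions of unlisted peaks were not used here, and gaps to all called peaks may be shorter.

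Along the chromosomes, no miR156 peak lay in the outermost segments. With each chromosome divided into 10 equal segments up to the end of its last listed peak, 0 of 10 miR156 peaks fell in the first or the last segment, which held 38.2% of chromosomal peaks. The fourth to the sixth segment held 3 of 10, at zma-MIR156d, zma-MIR156i and zma-MIR156k, against 1 of 34 other microRNA peaks and 10.9% of chromosomal peaks. Peaks were listed within 5 kb of a gene, so these positions are those of the genes as much as of the peaks. For the other microRNA peaks the outer segments were not counted.

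Of the 10 miR156 peaks, 1 was shared with another gene. The share of all chromosomal peaks listed for more than 1 gene was not counted here. No miR156 peak was listed for a second named microRNA gene, and only the peak of zma-MIR156g was listed for a gene with other coordinates, Zm00001d020500. All 10 peaks were listed again for an ENSRNA identifier with exactly the coordinates of the hairpin, as were 43 of the 44 microRNA rows in the table. These are second names of the same hairpins and were not counted as further genes.

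Several hairpins had a neighbouring listed gene with a KN1 peak of higher fold than their own. Within 100 kb, 7 listed genes were the nearest on one side of a miR156 precursor without overlapping it. Their 11 peaks had folds of 4.91 to 30.1 with a median of 8.41, which is below the 9.47 of all chromosomal peaks. A fold of at least 10 was reached by 5 of the 11, against 47.3% of chromosomal peaks. Next to zma-MIR156l, at 16.9 kb, Zm00001d017195 had 3 peaks, with a fold of 30.1 at 225 bp upstream, 22.4 at 3366 bp upstream and 7.36 at 873 bp downstream. Next to zma-MIR156d, at 12.5 kb, Zm00001d015513 had 3 peaks, with a fold of 21.4 at 91 bp upstream and folds of 8.41 and 4.91 inside the gene. The neighbour of zma-MIR156k at 59.9 kb, Zm00001d036723, had a fold of 25.2 at 303 bp downstream, and that of zma-MIR156e at 93.9 kb, Zm00001d003124, a fold of 15.1 at 37 bp upstream. Near zma-MIR156f, Zm00001d005742 at 23.6 kb and Zm00001d005744 at 49.7 kb had folds of 7.36 and 4.91, and near zma-MIR156j, Zm00001d020852 at 60.0 kb had a fold of 6.66. No such neighbour lay within 100 kb of zma-MIR156i or zma-MIR156g. The functions of these genes were not analysed here.

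RefSeq's annotation of the later B73 assembly Zm-B73-REFERENCE-NAM-5.0 was used to count the family. It names 11 miR156 genes, of which 8 (72.7%) were listed with a KN1 peak, and the hairpins of all 8 have the same length in both annotations. Over its 164 microRNA genes the share was 21.3%, and outside the family 27 of 153 genes (17.6%) were listed. Because a listed peak defined the members, these shares are given as a description only. Whether the authors' annotation held every RefSeq gene was not tested, so a gene without a listed peak may also be one that was not searched.

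Of the 11 miR156 genes counted in RefSeq, the 3 without a listed peak were zma-MIR156a, zma-MIR156b and zma-MIR156h. The name zma-MIR156c is not among the 11, so the share of the family holds for the counted names only. RefSeq places zma-MIR156b inside a long non-coding RNA gene with the synonym cg1, the symbol of Corngrass1. Among the other families of at least 8 genes, the listed genes were 5 of 8 for miR396, 4 of 8 for miR164, 3 of 13 for miR166 and 2 of 10 for miR167. They were 2 of 14 for miR171, 2 of 18 for miR169 and 1 of 9 for miR159, and 0 of 15 for miR395 and 0 of 10 for miR399. In smaller families, the listed genes were 2 of 2 for miR528, 2 of 3 for miR393 and 2 of 5 for miR160. They were 1 of 1 for miR1432 and for miR482, and every other smaller family had none. The miR172 family acts downstream of SPL genes and promotes the adult phase, and 0 of its 4 genes were listed. The single miR529 gene, of a family that also targets SPL genes, was likewise not listed.

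**Figure D4:**
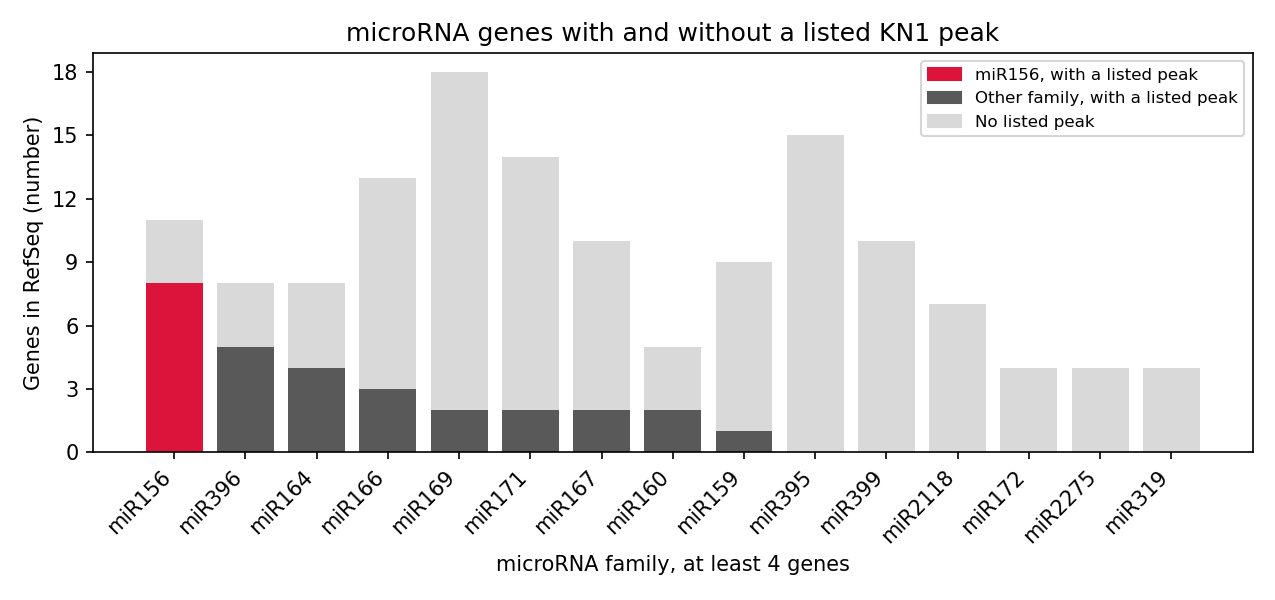
Number of microRNA genes in RefSeq (y axis) for each family of at least 4 genes (x axis). Coloured parts are genes with a listed KN1 peak (miR156 in red, 8 of 11, and other families in dark grey) and light grey parts are genes without one.

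In the same RefSeq annotation, most miR156 hairpins lay inside a longer gene. This held for 10 of 11, and zma-MIR156l overlapped no other gene. The surrounding gene was a long non-coding RNA for 7 hairpins, among them zma-MIR156d, zma-MIR156f, zma-MIR156i and zma-MIR156k with KN1 peaks and all 3 genes without one. It was protein-coding for zma-MIR156e and zma-MIR156j. For zma-MIR156g it was a transcribed pseudogene, LOC100275750, and in the deposited table the same hairpin lay inside Zm00001d020500. Coordinates of the 2 assemblies were not converted, so the positions of KN1 summits relative to these RefSeq genes were not analysed here.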

How the data were processed

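Per the submitters' processing notes, fastp 0.21.0, Bowtie2 2.4.2, SAMtools 1.11 and MACS2 were used. The genome build is not given in the sources used here, and the identifiers are those of AGPv4. The authors deposited 1 table of peaks and their genes within 5 kb, with no header. Its columns are the authors' fold (a linear ratio, at the summit, of ChIP to input with 1 added to each), −log10 p-value and −log10 q-value, a score that follows the q-value, the summit offset and the distance to the gene.

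Peaks were called on 1 ChIP library against 1 input library, and the peak names hold rmdup, for removed duplicates, and an effective genome size of 700 Mb. The members and lists were chosen with earlier results of these data known. Genes named in the text are all miR156 members, genes sharing their peaks, the nearest listed gene on each side within 100 kb, and the miR172 family. The miR529 family, the families of at least 8 genes and the smaller families with a listed gene were added after their values were seen. SPL genes and promoter motifs, also planned, were not analysed here.

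Positions are 1-based, and each summit was placed by the strand of its gene. ChIP reads over the summit and the level of input were recovered by solving the MACS2 formulas for each deposited fold and p-value, (reads + 1) / (input + 1) and a Poisson upper tail, with a relative error of at most 8.1e-06. On simulated data, the reads were recovered for 100.0% of 2000 peaks and positions for 100.0% of 2000 summits. Recovery of the input level was not scored. Reads are counted after extension, at the highest point of each called peak. The exact Poisson 95% intervals cover counting error only and make no allowance for this choice of point. Total depth is not in the table. Scripts ran in Python 3.11.15 with scipy 1.17.1, pandas 2.3.3 and numpy 2.4.6, and figures were drawn with matplotlib 3.10.9.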

Additional observations from a re-analysis of the deposited data

How the results depend on the processing

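At a −log10 q of at least 10 in place of all deposited peaks, 4 peaks at 4 genes were left of 10 peaks at 8 genes, since the other 6 peaks rest on 16 reads or fewer. A fold of at least 5 left 9 peaks, and a limit of 2000 bp between peak and gene left 7 genes. The median fold of 5.96 was 8.64 with no 1 added to reads and input. It was at most 10.5 with the background spread over the 2104 Mb of the chromosomes, which puts the floor at 0.616 in place of 1.85. The fold of every peak at the floor can rise by this change, but less where local input, which is not known, lies between these levels. The 6 upstream summits stayed 6 by peak midpoint and by nearest edge, and 1 peak shared with another gene stayed 1 by coordinates within 5 kb or 2000 bp. No paired analysis was possible because each group has 1 library, and no library could be left out. With 12 to 33 reads over a summit, the counting intervals of 43 of the 45 pairs of peaks overlapped, which is not a test of equal height. The exceptions set the peak of zma-MIR156l against those of zma-MIR156g and, upstream, zma-MIR156e. The 5 peaks of 16 reads have the same interval, so pairs among them overlapped by construction.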
